A study of Mus musculus with 14 samples.

Results

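The genes described here are 6 imprinted genes, Zdbf2, Ndn, Peg10, Kcnq1ot1, H19 and Asb4. They were picked by symbol from the 3533 genes that the authors listed for the loss-of-function experiment on Ezh2 in mouse diffuse midline glioma. Kcnq1ot1 and Asb4 are also among the 294 genes listed for the gain-of-function experiment. An imprinted gene is transcribed mainly from the copy inherited from one parent. The parental copies differ by a mark set in the germ line, usually DNA methylation of a control region shared by a cluster of genes. EZH2 is the methyltransferase of Polycomb repressive complex 2 and places the repressive mark H3K27me3, which at several imprinted clusters lies on the silent copy.

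RNA was sequenced from bulk pontine tumors labelled C57BL/6, raised in mice that carry the avian virus receptor Tv-a under the Nestin promoter, so that RCAS viruses enter Nestin-expressing progenitors. The loss-of-function experiment held 3 EZH2 WT tumors (Nestin-Tv-a; p53f/f;Ezh2wt) and 4 EZH2 LOF tumors (Nestin-Tv-a; p53f/f;Ezh2f/f). By the labels and the study's methods, both groups received RCAS-Cre, which deletes p53 in all 7 tumors, and RCAS-PDGF-B as the driver. The gain-of-function experiment held 3 EZH2 WT tumors (Nestin-Tv-a;Ezh2wt by the labels) raised with RCAS-Y, which carries no Cre, and 4 EZH2 GOF tumors (Nestin-Tv-a;Ezh2Y641F/+) raised with RCAS-Cre. The driver RCAS-PDGF-B and the p53 knockdown virus RCAS-shp53 were added to both. The labels used here hold no ages. Deletion of the floxed Ezh2 exons by RCAS-Cre was partial by the study's own account, so an EZH2 LOF tumor can hold cells that kept Ezh2. H3K27me3 staining was still reported as almost absent from Ezh2-deleted tumors raised with RCAS-shp53. By the study's account, reads of the mutant Ezh2 allele were found in only a minority of the EZH2 GOF tumors. The study proposes that RNA-seq may have missed the allele, and it reported more H3K27me3 staining in EZH2 GOF tumors. Ezh2 itself was not analysed here, so the labels were not checked against the targeted gene. The reads carry no parental assignment here, so no value below says which copy was transcribed.

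Values are normalized counts, that is, the reads of a gene over the size factor of its library, and the 2 experiments were normalized apart. Size factors ran from 1.80 to 2.64 in EZH2 WT and from 0.218 to 1.36 in EZH2 LOF tumors, where 1 read was worth 4.58 normalized counts in replicate 13. In the gain-of-function experiment EZH2 WT replicate 1 stood apart with a size factor of 0.0937, against 0.932 to 2.12 in the other 6 tumors. Of the glioma progenitor markers looked at, 3 of 12 were in the loss-of-function table. Olig2 averaged 2268 normalized counts in EZH2 WT and 1377 in EZH2 LOF tumors and was called lower (adjusted p = 0.0148 from limma). Pdgfra averaged 19149 and 11124 and Ptprz1 14761 and 9187, and neither passed (adjusted p = 0.0636 and 0.0792 from limma). The tables hold only genes that the authors had called, so an imprinted gene outside them was not measured here. In bulk tumors, fewer cells that express a gene and less RNA per cell cannot be told apart.

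All 6 genes were higher in EZH2 LOF than in EZH2 WT tumors, by 29.3-fold for Zdbf2, 20.2-fold for Asb4, 8.40-fold for H19, 3.60-fold for Ndn, 2.58-fold for Peg10 and 2.45-fold for Kcnq1ot1. A rise here is an adjusted p under 0.05 from limma on log2(normalized count + 1), two-sided, with Benjamini-Hochberg adjustment over the 13391 genes that the authors had tested. By this rule 60.9% of the 3533 listed genes passed, 31.2% as a rise and 29.7% as a fall. The fit used the listed genes alone, which the authors had picked for a difference in these same tumors. Its p-values can therefore be too small, and adjustment over all tested genes does not undo this. In each of the 6 genes the lowest EZH2 LOF tumor lay above the highest EZH2 WT tumor, a separation that 86.4% of the listed genes show in some direction and 41.9% in this one. For each gene an exact permutation test over the 35 ways to split 7 tumors gave a two-sided p of 0.0286, the smallest this design allows. The genes were chosen with earlier results of these data known, so the shared direction is a description and not a test.

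**Figure D1:**
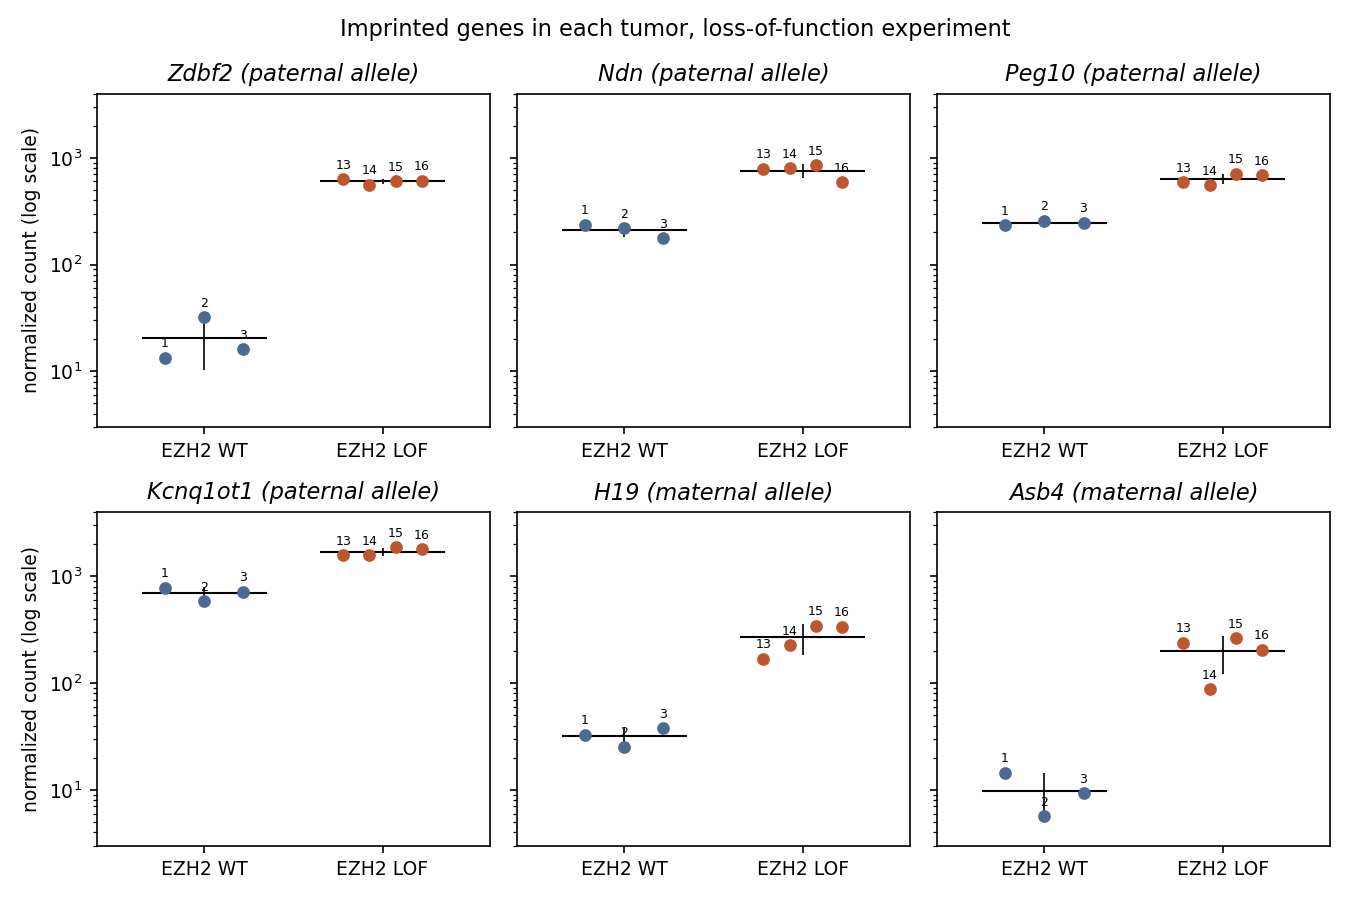
Normalized counts (log scale) of the 6 imprinted genes in the 3 EZH2 WT and 4 EZH2 LOF tumors of the loss-of-function experiment. Points are tumors with their replicate number, horizontal lines are group means and vertical lines ± 1 SD, and in every panel the 4 EZH2 LOF tumors lie above the 3 EZH2 WT tumors.

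Zdbf2, a zinc finger gene expressed from the paternal allele, lies on chromosome 1 (chr1:63273265-63314576, plus strand, mm10). It is known from mouse embryos for a switch in which Polycomb marks cover its promoter until a longer paternal transcript, which starts far upstream, is made and the marks are lost. RefSeq places 2 starts for Zdbf2, 72.9 kb apart, and both windows are shown because this locus gave the highest log2 fold change of the 3533 listed genes. Each line gives 250 bases before to 50 bases after a start (RefSeq, GRCm38.p6), with capitals for TGCCGC or its reverse complement GCGGCA. This is the hexamer that ZFP57, a keeper of imprints in the mouse, binds when it is methylated.
Zdbf2 upstream start, chr1:63200108-63200407, plus strand: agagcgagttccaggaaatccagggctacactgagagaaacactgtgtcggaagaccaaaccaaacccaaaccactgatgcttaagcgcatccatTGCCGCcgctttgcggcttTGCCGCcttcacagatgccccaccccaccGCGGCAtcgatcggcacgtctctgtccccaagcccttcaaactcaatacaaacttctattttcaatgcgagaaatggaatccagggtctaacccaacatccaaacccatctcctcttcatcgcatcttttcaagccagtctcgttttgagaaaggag
Zdbf2 downstream start, chr1:63273019-63273318, plus strand: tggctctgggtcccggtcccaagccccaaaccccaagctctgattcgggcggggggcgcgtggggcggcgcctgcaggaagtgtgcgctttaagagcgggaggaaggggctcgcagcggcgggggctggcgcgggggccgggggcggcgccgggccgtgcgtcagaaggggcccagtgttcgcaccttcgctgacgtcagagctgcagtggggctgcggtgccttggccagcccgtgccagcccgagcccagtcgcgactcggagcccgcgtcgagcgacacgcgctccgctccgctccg
The upstream window holds 3 copies of the hexamer and 15 CpG dinucleotides, and the downstream window holds 38 CpG and no copy. On both strands, 11.6% of all RefSeq promoter windows of this length hold at least 1 copy, and 19.3% of those of the loss-of-function table, for the 2712 of its 3533 genes that have a window. Of the other picked genes, Ndn (1 window), Kcnq1ot1 (1 window) and Asb4 (2 windows) hold none. Among windows of other imprinted genes described below, that of Nap1l5 holds 2 copies, and 1 window each of Meg3, Plagl1 and Snrpn holds 1. The remaining windows of those genes hold none. A match of letters is a description of the window and not a binding site.

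Zdbf2 read 13.4, 32.2 and 16.04 normalized counts in EZH2 WT replicates 1, 2 and 3, from 24, 85 and 31 reads. It read 632, 559, 605 and 611 normalized counts in EZH2 LOF replicates 13, 14, 15 and 16, from 138, 261, 822 and 512 reads. The EZH2 WT tumors were all low, with replicate 2 the highest, and the 4 EZH2 LOF tumors stood within 1.13-fold of each other although their depth differed. The group means were 20.5 ± 10.2 (SD, n = 3) and 602 ± 30.9 (SD, n = 4), and the log2 fold change was 4.90 (SE 0.26, adjusted p = 2.99e-05 from limma). Zdbf2 thus ranked 1 by this log2 fold change among the listed genes, and 4 by the plain ratio of means.

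Ndn, the gene of necdin, is an intronless, paternally expressed gene of the Prader-Willi region (chr7:62346569-62350262, plus strand), and its protein restrains growth of neurons and other cells. Its normalized counts were 237, 219 and 176 in the EZH2 WT tumors and 793, 794, 850 and 593 in EZH2 LOF replicates 13 to 16. The highest EZH2 WT value was well under the lowest EZH2 LOF value, that of replicate 16. The means were 211 ± 31.3 (SD, n = 3) and 757 ± 113 (SD, n = 4), with a log2 fold change of 1.84 (SE 0.16, adjusted p = 0.000681 from limma).

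Peg10, a paternally expressed gene derived from a retrotransposon and needed for the mouse placenta, lies on chromosome 6 (chr6:4747306-4760517, plus strand). Its normalized counts were 235, 257 and 246 in EZH2 WT tumors and 591, 557, 711 and 685 in EZH2 LOF replicates 13 to 16. The groups were tight and did not overlap. The means were 246 ± 11.1 (SD, n = 3) and 636 ± 73.5 (SD, n = 4), with a log2 fold change of 1.36 (SE 0.13, adjusted p = 0.000834 from limma).

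Kcnq1ot1 is a long RNA transcribed from the paternal allele in antisense to Kcnq1 (chr7:143203458-143296549, minus strand), and it silences Cdkn1c and other neighbours in cis. Its normalized counts were 783, 588 and 718 in EZH2 WT tumors and 1577, 1570, 1871 and 1800 in EZH2 LOF replicates 13 to 16. Each EZH2 LOF tumor was above every EZH2 WT tumor. The means were 696 ± 99.3 (SD, n = 3) and 1704 ± 154 (SD, n = 4), with a log2 fold change of 1.30 (SE 0.13, adjusted p = 0.00116 from limma). The kit was stranded, but the sources used here do not give the strand setting of the counting, so reads of Kcnq1 in antisense and reads of Kcnq1ot1 cannot be told apart.

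Other nuclear long RNAs were higher in the same tumors. Of 17 nuclear long noncoding RNAs beside Kcnq1ot1, 8 were in the table, 7 rose and none fell, with a median log2 fold change of 1.33, where 31.2% of all listed genes rose. Malat1, an abundant RNA of nuclear speckles, rose 2.49-fold from 24117 to 59945 normalized counts (adjusted p = 0.0238 from limma), about the fold of Kcnq1ot1. Miat rose 4.16-fold, Firre 2.51-fold, Jpx 2.48-fold and Ftx 2.09-fold, and the imprinted Airn and Meg3 are in this list too. The summed level of the 8 RNAs, most of it Malat1, ran from 20241 to 31943 in EZH2 WT and from 56457 to 67514 in EZH2 LOF tumors. Without Malat1 it ran from 904 to 1235 and from 2493 to 4611. The part of this shift in the Kcnq1ot1 result was not tested.

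Of the maternally expressed genes, H19 gives a long RNA that hosts the microRNA miR-675 and is abundant in the embryo (chr7:142575529-142578143, minus strand). The mature arms of this microRNA are shown since they are the small products of the H19 transcript, with the seed, bases 2 to 8, in capitals (RefSeq, GRCm38.p6, chromosome 7). The 2 seeds differ, and the microRNA itself was not measured.
mmu-miR-675-5p: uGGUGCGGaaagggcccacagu
mmu-miR-675-3p: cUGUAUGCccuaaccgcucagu
H19 read 32.9, 25.4 and 37.8 normalized counts in the EZH2 WT tumors and 170, 225, 345 and 336 in EZH2 LOF replicates 13 to 16. Replicates 15 and 16 were the higher pair and replicate 13, with 37 reads, the lowest, but all 4 were above the EZH2 WT tumors. The means were 32.0 ± 6.23 (SD, n = 3) and 269 ± 85.9 (SD, n = 4), with a log2 fold change of 2.99 (SE 0.27, adjusted p = 0.000834 from limma).

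Asb4, a maternally expressed gene with ankyrin repeats and a SOCS box, which links proteins to a ubiquitin ligase, lies in the Peg10 cluster (chr6:5383386-5433022, plus strand). Its normalized counts were 14.5, 5.69 and 9.31 in EZH2 WT tumors, from 26, 15 and 18 reads. They were 238, 87.8, 263 and 205 in EZH2 LOF replicates 13 to 16, from 52, 41, 357 and 172 reads. EZH2 LOF replicate 14 was the lowest of its group and still above every EZH2 WT tumor. The means were 9.83 ± 4.42 (SD, n = 3) and 198 ± 77.5 (SD, n = 4), with a log2 fold change of 4.17 (SE 0.41, adjusted p = 0.00107 from limma).

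The calls did not rest on the 2 shallowest EZH2 LOF libraries. Without replicates 13 and 14 the log2 fold changes were 4.92 for Zdbf2, 4.51 for Asb4, 3.39 for H19, 1.76 for Ndn, 1.50 for Peg10 and 1.41 for Kcnq1ot1, with adjusted p-values from 0.0115 to 0.0176 in limma.

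Per kilobase of exon, the order of levels changed between the groups. In EZH2 WT tumors Ndn was highest with 57.0 ± 8.46 normalized counts per kb, followed by Peg10 with 36.9 ± 1.66, H19 with 13.01 ± 2.53 and Kcnq1ot1 with 7.48 ± 1.07 (SD, n = 3). Asb4 with 2.50 ± 1.12 and Zdbf2 with 1.62 ± 0.81 were lowest, and only these neighbours in the order overlapped between tumors. In EZH2 LOF tumors Ndn again led with 205 ± 30.6 per kb. H19 with 109 ± 34.9 and Peg10 with 95.4 ± 11.03 overlapped, as did Asb4 with 50.5 ± 19.7 and Zdbf2 with 47.5 ± 2.44, and Kcnq1ot1 was lowest with 18.3 ± 1.66 (SD, n = 4). Exon lengths are those of GENCODE M21, and the long unspliced Kcnq1ot1 is divided by all of its 93092 bases.

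By parental origin, paternal Zdbf2, Ndn, Peg10 and Kcnq1ot1 rose by 1.30 to 4.90 on the log2 scale, and maternal H19 and Asb4 by 2.99 and 4.17. The ranges overlap. A wider list of 74 imprinted genes was set down from general knowledge, 56 of them imprinted in brain or embryo and 18 in placenta. Of the former, 19 were in the loss-of-function table, where 12 rose, 3 fell and 4 did not pass, with a median log2 fold change of 1.36 against -0.33 over all 3533 listed genes. Without the 6 genes above, 6 rose, 3 fell and 4 did not pass, with a median of 1.16. Among those expressed from the maternal allele, 4 of 5 rose and 0 fell (median 2.06), and without H19 and Asb4 2 of 3 rose (median 1.38). Among those expressed from the paternal allele, 8 of 14 rose and 3 fell (median 1.25). Without the 4 paternal genes above, 4 of 10 rose and 3 fell (median 0.94), beside 31.2% and 29.7% of all listed genes. Of the placenta genes, 5 were in the table, none rose and 2 fell.

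**Figure D2:**
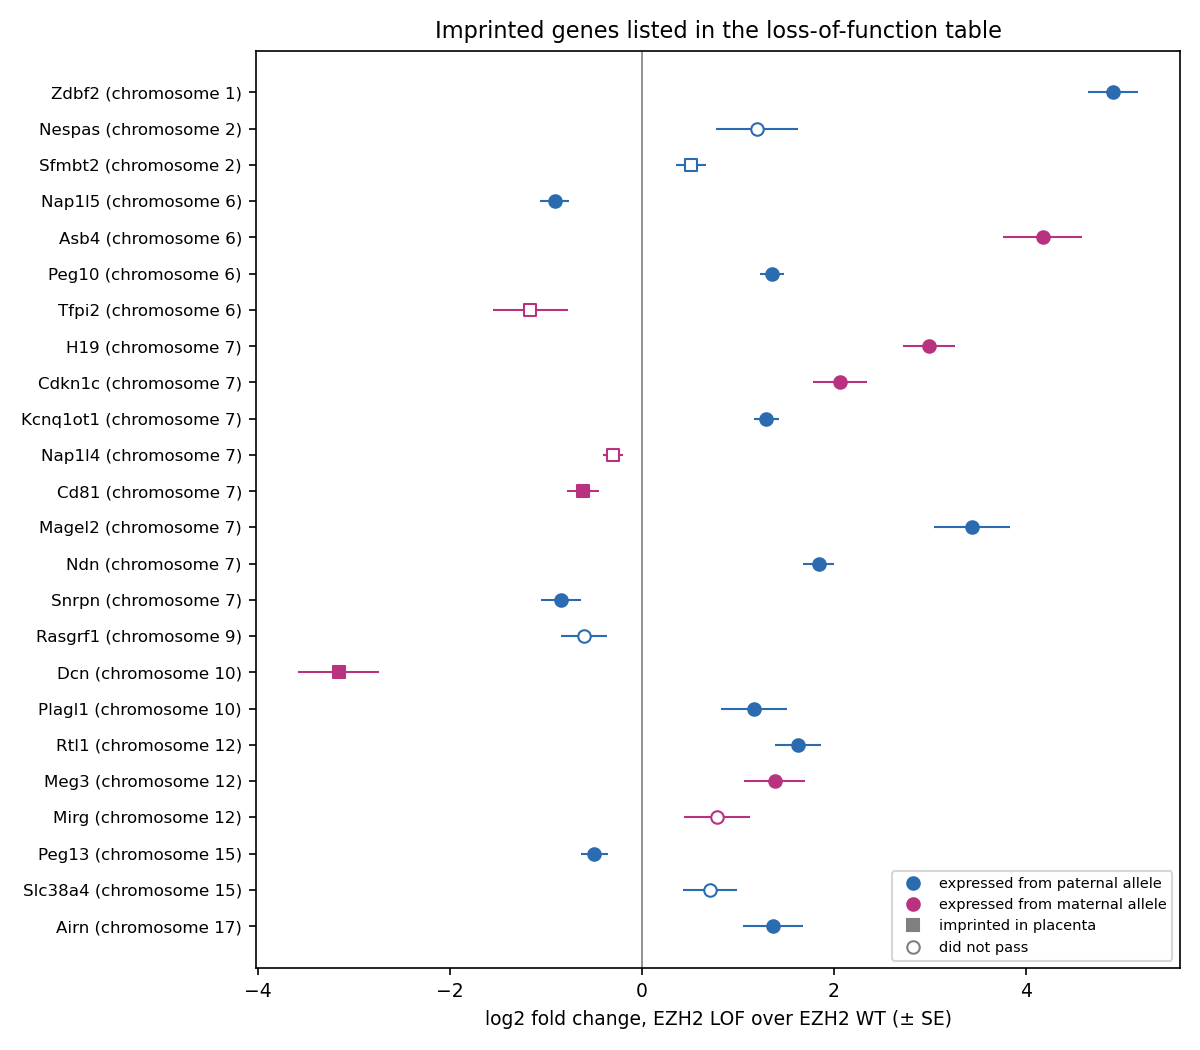
Log2 fold change of EZH2 LOF over EZH2 WT tumors, with SE bars, for the 24 imprinted genes of the wider list that are in the loss-of-function table, ordered by chromosome. Filled symbols passed the test, squares are imprinted in placenta, and colour gives the expressed allele; Zdbf2 and Asb4 lie farthest to the right at 4.90 and 4.17, and Dcn farthest to the left at -3.16.

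Beside Ndn lies Magel2, a paternally expressed gene for a partner of ubiquitin ligases, 27.1 kb away. It read 1.67, 3.41 and 1.55 normalized counts in EZH2 WT tumors, from 3, 9 and 3 reads, and 32.1, 23.6, 31.6 and 47.7 in EZH2 LOF replicates 13 to 16, from 7, 11, 43 and 40 reads. It thus went from near the limit of detection to a low level in every EZH2 LOF tumor, with a log2 fold change of 3.44 (SE 0.40, adjusted p = 0.00168 from limma). Snrpn, which encodes a splicing protein and shares the control region of this cluster, went the other way. Its normalized counts were 438, 586 and 332 in EZH2 WT tumors and 188, 261, 266 and 273 in EZH2 LOF replicates 13 to 16. The log2 fold change of Snrpn was -0.85 (SE 0.21, adjusted p = 0.0246 from limma). The call of Snrpn was lost without EZH2 WT replicate 2 (adjusted p = 0.0916) or EZH2 LOF replicate 13 (adjusted p = 0.0535), and 21.7% of its 50-base words occur in other genes on the same strand. Genes of this paternally expressed cluster thus differed in direction within the same tumors.

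In the Kcnq1ot1 cluster, Cdkn1c, the maternally expressed cell cycle inhibitor p57, read 11.1, 14.8 and 16.6 normalized counts in EZH2 WT tumors. It read 50.4, 51.4, 80.2 and 69.2 in EZH2 LOF replicates 13 to 16, so the groups were well apart. The log2 fold change was 2.06 (SE 0.28, adjusted p = 0.00315 from limma). Cdkn1c rose in the same tumors as Kcnq1ot1, the RNA that silences it in cis on the paternal copy. Of the Cdkn1c words, 24.9% occur in another gene when both strands are read, through an antisense transcript.

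The other 2 genes of this cluster in the table are placenta genes, and neither was higher. Cd81, a membrane tetraspanin, fell from 2386 ± 620 (SD, n = 3) to 1529 ± 127 (SD, n = 4), with a log2 fold change of -0.61 (SE 0.17, adjusted p = 0.0370 from limma). Leaving out any of 6 of the 7 tumors, all but EZH2 WT replicate 2, lost the call of Cd81, with adjusted p-values up to 0.0877. Nap1l4, a histone chaperone, did not pass with -0.30 (SE 0.11, adjusted p = 0.0822).

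On chromosome 12, the Dlk1-Dio3 cluster held paternal Rtl1 and maternal Meg3 and Mirg. Rtl1, a retrotransposon-derived gene of the placenta and muscle, rose from 31.7 ± 8.21 (SD, n = 3) to 99.0 ± 16.5 (SD, n = 4). Its log2 fold change was 1.63 (SE 0.24, adjusted p = 0.00439 from limma). Exons of Rtl1 overlap microRNA genes on the opposite strand. Since the strand setting of the counting is not given, antisense reads and reads of Rtl1 cannot be told apart. Meg3, a long noncoding RNA, read 491, 837 and 705 in EZH2 WT tumors and 1192, 1704, 1346 and 3234 in EZH2 LOF replicates 13 to 16. Replicate 16 alone was far above the rest, and the log2 fold change was 1.38 (SE 0.32, adjusted p = 0.0198 from limma). The call of Meg3 was lost without EZH2 WT replicate 1 (adjusted p = 0.0535). Mirg, a host of many microRNAs, did not pass with 0.78 (SE 0.35, adjusted p = 0.184).

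Of the remaining genes expressed from the paternal allele, Airn and Plagl1 rose and Nap1l5 and Peg13 fell. Airn, the antisense RNA of Igf2r, rose from 13.8 ± 4.18 (SD, n = 3) to 36.3 ± 6.14 (SD, n = 4), a log2 fold change of 1.37 (SE 0.31, adjusted p = 0.0189). This call was lost without EZH2 WT replicate 1 (adjusted p = 0.0532) or EZH2 LOF replicate 15 (adjusted p = 0.0556). Plagl1, a zinc finger regulator of growth, had a log2 fold change of 1.16 (SE 0.35, adjusted p = 0.0471), and only leaving out EZH2 LOF replicate 14 kept its call, the other 6 giving adjusted p-values up to 0.131. Nap1l5, a retrogene inside Herc3, fell from 1094 ± 152 (SD, n = 3) to 584 ± 96.5 (SD, n = 4), a log2 fold change of -0.91 (SE 0.15, adjusted p = 0.00724). Peg13, a noncoding RNA inside Trappc9, had -0.49 (SE 0.14, adjusted p = 0.0383), which only leaving out EZH2 LOF replicate 14 kept, with adjusted p-values up to 0.126 for the others. Nespas with 1.20, Slc38a4 with 0.71 and Rasgrf1 with -0.60 did not pass. These adjusted p-values are from limma.

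The placenta gene Dcn, which encodes the matrix protein decorin and is a marker of fibroblasts, fell 10.6-fold, from 136 ± 88.6 (SD, n = 3) to 12.8 ± 4.03 (SD, n = 4), the latter from 2 to 25 reads (log2 fold change -3.16, SE 0.42, adjusted p = 0.00283 from limma). Of the 12 markers of fibroblasts and mural cells, 5 were in the table and 4 fell, Dcn among them, and their summed level ran from 868 to 2190 in EZH2 WT and from 192 to 733 in EZH2 LOF tumors. Of 10 endothelial markers, 2 were in the table and both fell as well. Lists of cerebellar granule and Purkinje cell markers were added after values of these genes were seen. Of 12 granule cell markers the 1 in the table, Fat2, fell from 317 ± 452 (SD, n = 3) to 4.69 ± 3.09 (SD, n = 4), and of 10 Purkinje cell markers 2 were in the table and 1, Itpr1, fell. Their part in the imprinted genes that fell was not tested. None of 10 hypothalamic neuron markers was in the table, and of 14 other neuron markers the 2 listed, Gad1 and Tubb3, had negative log2 fold changes (-0.94 and -0.56) that did not pass. Of the remaining placenta genes, Tfpi2 with -1.16 (adjusted p = 0.0690) and Sfmbt2 with 0.51 (adjusted p = 0.0523) did not pass in limma.

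Around the 6 genes, 9 other genes of the table lay within 500 kb, of which 4 rose, 2 fell and 3 did not pass. Over all listed genes 31.2% rose and 29.7% fell. Among the 9 neighbours, 4 are imprinted genes described above. Of the 5 that are not on the imprinted list, 2 rose and 1 fell. Next to Zdbf2, Ino80d, a subunit of a chromatin remodeller, rose 1.46-fold, and Adam23, a membrane protein of neurons, rose 2.08-fold, from 313 ± 98.9 (SD, n = 3) to 650 ± 114 (SD, n = 4). Zdbf2, which lies between them, rose 29.3-fold. Next to H19, Ifitm10 fell (log2 fold change -1.32, SE 0.34, adjusted p = 0.0307 from limma) and the protease gene Ctsd did not pass (-0.86, adjusted p = 0.0692). Next to Ndn, A330076H08Rik did not pass (0.71, adjusted p = 0.117). Peg10 and Asb4 had no other listed gene within 500 kb and are 622.9 kb from each other, and within 1000 kb Bet1 did not pass (-0.60, adjusted p = 0.119).

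**Figure D3:**
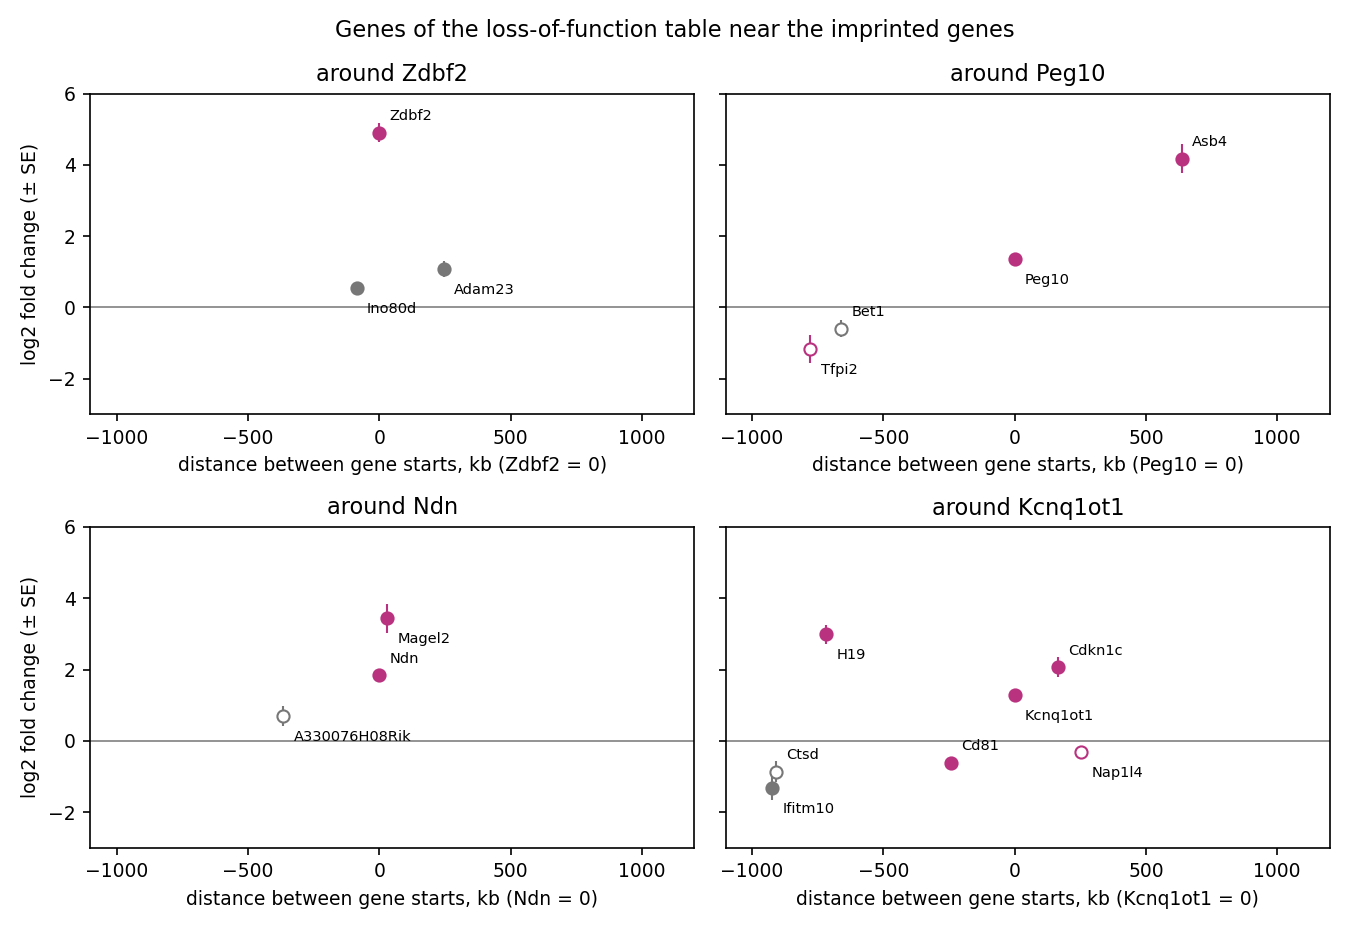
Log2 fold change with SE of genes of the loss-of-function table against the distance between gene starts in kb, within 1000 kb (distance between genes) of Zdbf2, Peg10, Ndn and Kcnq1ot1, the last panel including H19. Magenta points are on the imprinted list, grey points are not, and open points did not pass; Zdbf2 at 4.90 stands above Adam23 at 1.09 and Ino80d at 0.56.

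Of 20 genes that set, keep or read imprints and DNA methylation, 7 were in the table, 4 rose and 1 fell, beside 31.2% and 29.7% of all listed genes. Dnmt3b, a de novo DNA methyltransferase, rose 3.43-fold from a low level (9.20 ± 2.68 to 31.6 ± 5.17), Tet3, a methylcytosine dioxygenase, 2.05-fold, Tet2 1.51-fold and Dnmt3a 1.33-fold. Smchd1, a chromatin protein of the inactive X and of some imprinted clusters, fell 1.29-fold (adjusted p = 0.0487 from limma). Zfp57, which keeps imprints, read 43.4 ± 7.22 in EZH2 WT (SD, n = 3) and 84.1 ± 32.0 in EZH2 LOF tumors (SD, n = 4) and did not pass (adjusted p = 0.118 from limma), nor did Uhrf1 (adjusted p = 0.0855).

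The patterns most like each gene over the 7 tumors, by Pearson correlation of log2(normalized count + 1) across the listed genes, were those of Cacna2d1, Zfhx4 and Metap1d for Zdbf2. They were Rab3d, Tchh and Gata6 for Ndn, and Metap1d, Col2a1 and Pdzrn3 for Peg10. For Kcnq1ot1 they were Lhx2, Pla2g4b and Dock6, for H19 Tgif1, Nkx2-5 and Sfi1, and for Asb4 Wsb1, Zc3h7a and Mink1. All these correlations were from 0.987 to 0.998, and between 77 genes (Ndn) and 186 genes (Kcnq1ot1) exceeded 0.95. With 7 points in 2 separated groups that share libraries and size factors, such values are common and describe the group difference.

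In the gain-of-function experiment, Asb4 and Kcnq1ot1 had lower means in the EZH2 GOF group than in its controls, by 6.54-fold and 2.46-fold, but neither passed the test over the 16173 genes that the authors had tested. By the same rule 4.08% of the 294 listed genes passed as lower and none (0.0%) higher. Groups did not overlap in 92.5% of the listed genes, and in 70.7% with EZH2 GOF as the lower group. Beside the 0 passing of these 2 genes, both had an unadjusted p under 0.05 in limma, as had 226 listed genes (76.9%) with lower and 67 (22.8%) with higher values. DESeq2 on the recovered reads called 1 of the 2, Asb4 (adjusted p = 0.0364), and edgeR's quasi-likelihood test called none.

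Asb4 read 192, 304 and 70.6 normalized counts in the EZH2 WT tumors, from 18, 454 and 110 reads. It read 13.6, 24.7, 62.2 and 15.1 in EZH2 GOF replicates 1 to 4, from 21, 37, 58 and 32 reads. EZH2 WT replicate 3 and EZH2 GOF replicate 3 nearly met, and the groups did not overlap. The means were 189 ± 117 (SD, n = 3) and 28.9 ± 22.8 (SD, n = 4), with a log2 fold change of -2.70 (SE 0.76, adjusted p = 0.497 from limma). The exact permutation test, two-sided, gave p = 0.0571. Without EZH2 WT replicate 1, the shallow library, the log2 fold change was -2.57, and with TMM factors set on the listed genes it was -1.06.

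Kcnq1ot1 read 4908, 2151 and 2261 normalized counts in the EZH2 WT tumors and 1359, 1707, 1100 and 886 in EZH2 GOF replicates 1 to 4. EZH2 WT replicate 1, the shallow library, was far above the other tumors. The means were 3107 ± 1561 (SD, n = 3) and 1263 ± 353 (SD, n = 4), with a log2 fold change of -1.23 (SE 0.34, adjusted p = 0.496 from limma) and p = 0.0286 by the exact permutation test, two-sided. Without EZH2 WT replicate 1 the log2 fold change was -0.85, and with TMM factors set on the listed genes, which moved the median of all 294 genes by 1.66, it turned to 0.45.

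In the same table the choroid plexus and eye marker Otx2 read 128 to 487 in EZH2 WT and 1.94 to 72.9 in EZH2 GOF tumors. The fibroblast marker Lum read 167 to 380 and 9.88 to 87.9, and the hypothalamic peptide gene Hcrt 2.57 to 448 and 0.669 to 7.10. None of these genes passed in limma. Each was the only gene in the table from its list, of 8 choroid plexus, 12 fibroblast and mural cell and 10 hypothalamic neuron markers. Markers of cerebellar neurons were looked at in the same 2 added lists. Of 12 granule cell markers, 6 were in the table, 2 fell (Barhl2 and Pax6) and 4 did not pass, and their summed level ran from 2892 to 32429 in EZH2 WT and from 425 to 1397 in EZH2 GOF tumors. The granule cell receptor gene Gabra6, which did not pass, averaged 3440 ± 3531 (SD, n = 3) and 10.5 ± 7.57 (SD, n = 4). Of 10 Purkinje cell markers, the 4 in the table did not pass, with summed levels from 1131 to 29770 and from 456 to 997. The part of these cells in the Asb4 and Kcnq1ot1 values was not tested. The genes most like Asb4 over these 7 tumors were Slc16a8, Oca2 and Mgarp (Pearson r 0.957 to 0.976), and those most like Kcnq1ot1 were Mpp4, Fam161a and Itga10 (0.972 to 0.975). Slc16a8 and Oca2 are known from pigmented cells, Slc16a8 from the retinal pigment epithelium. Neither passed in limma, and no list of pigment cell markers was looked at.

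**Figure D4:**
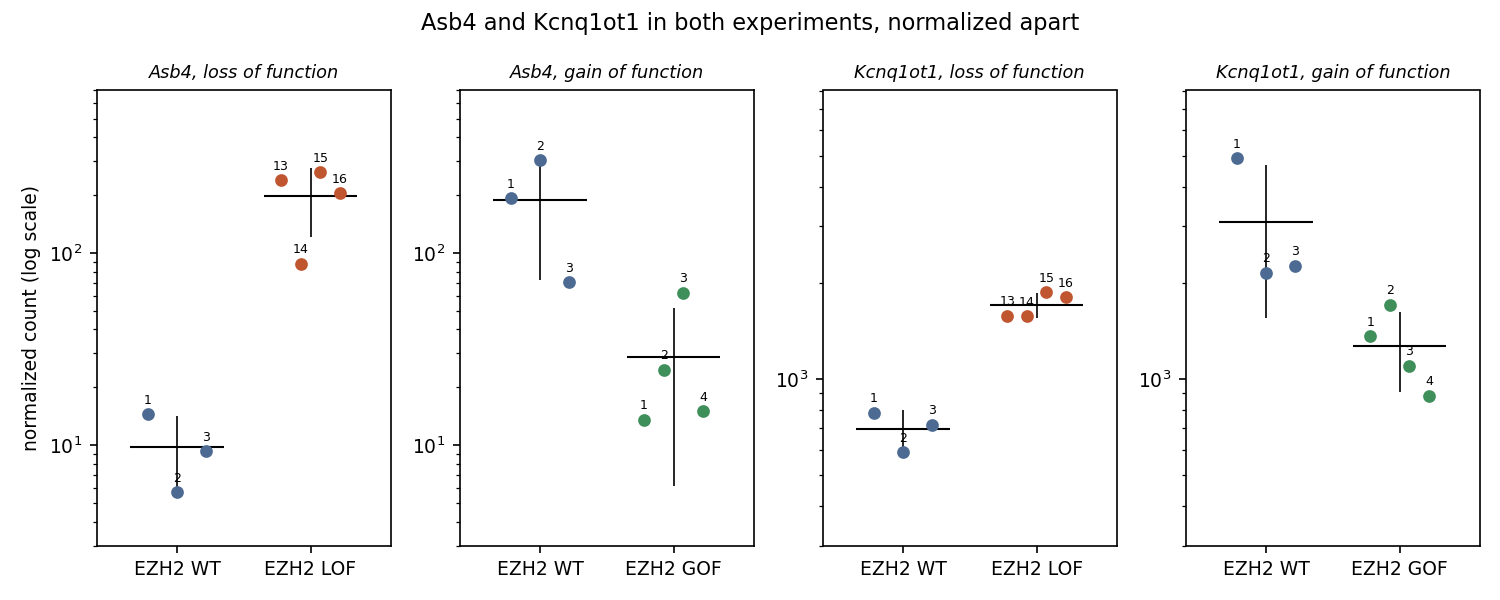
Normalized counts (log scale) of Asb4 and Kcnq1ot1 in the tumors of both experiments, which were normalized apart, so that only groups within a panel compare. Points are tumors with their replicate number, horizontal lines are means and vertical lines ± 1 SD; Asb4 averaged 9.83 and 198 in EZH2 WT and LOF, and 189 and 28.9 in EZH2 WT and GOF tumors.

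Set side by side, each against its own EZH2 WT group, the log2 fold change of Asb4 was 4.17 in EZH2 LOF tumors, which passed, and -2.70 in EZH2 GOF tumors, which did not. That of Kcnq1ot1 was 1.30, which passed, and -1.23, which did not. The negative sign turned in 1 of 17 alternatives, TMM factors set on the listed genes. Of these 294 genes, 227 had negative log2 fold changes in the main fit. The mean of Asb4 was 9.83 in one EZH2 WT group and 189 in the other, and that of Kcnq1ot1 696 and 3107. The difference between the experiments was not tested, since they were normalized apart and their EZH2 WT groups differ in p53 construct and virus.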

How the data were processed

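RNA of 14 tumors, 3 and 4 in each of 2 experiments, was sequenced as single-end reads of 50 bases after rRNA depletion. Per the labels and the submitters' processing notes, the authors used FastQC, Trim Galore, STAR, HTSeq, DESeq2 and mm10, whose versions the sources used here do not give. For each experiment the authors deposited a table of the genes they called. Its signal had been scaled by the authors, who divided the reads of a gene by a library size factor. The deposited log2 fold changes, Wald score and p-values are the authors' own comparison and were used only, for the p-values, to read the number of genes tested (13391 and 16173).

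Of 3553 lines, 19 identifiers on several lines held equal values and were kept once, which left 3533 genes. Values were whole multiples of 1 step in all libraries within 0.001 reads, for 100% of values; a coded check covers 5 of the 14 libraries. Reads in listed genes ran from 281847 to 3685186 and from 14796 to 412664, which is part of a library.

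Groups were compared with limma 3.58.1 in R 4.3.3, which took log2(value + 1) with a variance trend, two-sided, within each experiment, and adjusted p-values count all genes tested by the authors. Replicates are tumors by the labels; p-values measure the spread between these libraries. Alternatives were pseudocounts of 0.5 and 5, a minimum mean of 10, shares of listed reads, TMM, edgeR 4.0.16, DESeq2 1.42.0, no trend, adjustment over the table alone, each library left out and, in the gain-of-function experiment, a replicate block. Planned to be named were the 6 genes, listed imprinted genes, genes within 500 kb, the 3 most correlated genes, passing imprint regulators and nuclear RNAs and up to 2 markers of a cell type. Beyond that plan, the text also names Bet1, the imprint regulators Zfp57 and Uhrf1, which did not pass, and more than 2 glioma progenitor and granule cell markers. Lists of cerebellar granule and Purkinje cell markers were added after their values were seen. Members and lists were chosen with earlier results of these data known. Gene positions are from GENCODE M21 (3531 of 3533 genes found), and promoter windows and microRNAs from RefSeq (4 of the 6 genes have a window).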

Additional observations from a re-analysis of the deposited data

Results flagged for a closer look

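In 26 groups of 4 tumors that were checked, 1 for each imprinted gene and experiment, a single value stood apart. Snrpn in EZH2 LOF replicate 13 read 187.9 normalized counts, from 41 reads, while the other 3 EZH2 LOF tumors read from 261 to 273. Chance sets apart about 1 in 20 such groups. Replicate 13 is the shallowest EZH2 LOF library, in which 1 read was worth 4.58 normalized counts, and the part of depth in this value was not tested.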

How the results depend on the processing

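All 6 imprinted genes stayed higher and past the threshold in each of 17 alternatives. Their log2 fold changes ranged from 4.64 to 5.27 for Zdbf2, 3.71 to 4.52 for Asb4, 2.84 to 3.39 for H19, 1.72 to 1.98 for Ndn, 1.30 to 1.50 for Peg10 and 1.18 to 1.43 for Kcnq1ot1. Over the wider list, 3 brain or embryo genes fell. This count was 0 without EZH2 LOF replicates 13 and 14, 5 with placenta genes included, and from 1 to 3 when each tumor was left out. Of the 12 brain or embryo genes that rose, Airn, Meg3 and Plagl1 also lost their calls without replicates 13 and 14. Their adjusted p-values were then 0.0930, 0.0763 and 0.0793 in limma, and without EZH2 WT replicate 1 these calls were lost as well. Magel2, Cdkn1c and Rtl1 kept their calls in both settings. Scaling by the share of listed reads moved the median of all listed genes by 0.14 (log2), and 1465 genes then rose and 510 fell, against 1102 and 1048. Fewer tumors lowered the counts over the table, to 182 higher and 89 lower without EZH2 LOF replicates 13 and 14 and to between 458 and 1048 higher and between 357 and 876 lower with 1 tumor left out. Adjusting over the table alone gave 1694 and 1790.

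In the gain-of-function experiment, with TMM on the listed genes, Kcnq1ot1 turned to 0.45 and Asb4 shrank to -1.06. When each tumor was left out Kcnq1ot1 ranged from -1.44 to -0.85 and Asb4 from -3.29 to -2.24. DESeq2 on reads gave Asb4 -2.72 and called it, so that 1 of the 2 genes was lower. Adjusting over the table alone called both, 2 lower, with -2.70 and -1.23, but these genes were already selected by the authors. Other counts over the 294 genes were 67 higher and 5 lower with TMM, 26 and 162 with DESeq2, 4 lower with edgeR, 0 to 23 lower with 1 tumor left out, and 3 to 15 lower under other pseudocounts, against 0 and 12. Labels give both groups replicates 1 to 3, but same-numbered tumors did not deviate together (r from -0.18 to 0.01), so the numbers were not taken as pairs. With the replicate block, in which EZH2 GOF replicate 4 has no partner and adds nothing, Asb4 had -2.49 and Kcnq1ot1 -1.07, neither called, and 7 genes were higher and 57 lower. No paired analysis was possible in the loss-of-function experiment because its groups share no number. Depth limits the low values, such as 3 to 9 reads of Magel2 and 15 to 26 of Asb4 in EZH2 WT tumors and 2 to 25 of Dcn in EZH2 LOF tumors.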
